A study of Chlorocebus sabaeus with 18 samples.

Results

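The integrated stress response is the path by which a cell slows protein synthesis and changes its transcription when it meets misfolded protein, amino acid shortage, viral RNA or haem loss. Kinases that sense these conditions phosphorylate the alpha subunit of the initiation factor eIF2, which lowers general translation and raises translation of the mRNA for the transcription factor ATF4. ATF4 then drives genes for amino acid supply and redox balance and, under lasting stress, the transcription factor CHOP, encoded by DDIT3.

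Here 10 genes of this response were followed in COS-7 cells, an African green monkey kidney line that carries the SV40 large T antigen. They are ATF4, DDIT3, ATF3, PPP1R15A, TRIB3, CHAC1, SESN2, DDIT4, FGF21 and GDF15, of 19997 genes or groups of overlapping genes in the summed count tables. The genes were chosen by Ensembl ID, with no threshold on a value, but with gene-level results of these libraries already known. Changes in gene level are therefore a description of these libraries. The adjusted p-values given with them place each gene in the fit of all genes and are no independent support for the choice. Each gene had a row of its own, none of them inside a group of overlapping genes, and all 10 passed the filter on low values. The symbols are those given with the IDs in the choice of genes, since the files do not pair IDs with names.

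The study transfected COS-7 cells with a CGG repeat, changed the level of the splicing factor TRA2A, or did both. The repeat is an expansion of 60 CGG copies in the 5′ UTR of FMR1, the kind of repeat that underlies fragile X-associated tremor/ataxia syndrome (FXTAS). Counts were at hand for 3 libraries in each of 5 groups. These were cells with the repeat (CGG), cells overexpressing TRA2A (TRA_OE, titled GFP_TRA), cells with knockdown of TRA2A (siTRA), cells with the repeat and knockdown (CGG_siTRA) and control COS-7 cells (CTL). All but CTL are called transfected here, although the labels use that word for the repeat only. In the 3 samples of a sixth group, the repeat with TRA2A overexpression (CGG_TRA), gene levels were not analysed here. The labels name no empty-vector and no control-siRNA group and do not say whether CTL cells were transfected, so in every comparison with CTL the named treatment and transfection itself cannot be told apart. All groups are the same line, and the labels do not say that the libraries of a group came from separate cultures. Their spread may be technical, and p-values measure only that spread. Libraries are lettered a to c within a group, and the letters do not link groups.

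Summed bin counts per library ran from 121142115 to 203957869. As a check of the labels, 1 ID of all genes tested (ENSG00000164548.10) met a rule of a called rise of 2-fold or more in TRA_OE, against CTL, and a called fall as large in siTRA, against CTL, and in CGG_siTRA, against CGG. Its normalised counts were 187106 to 221793 in TRA_OE, 3117 to 4916 in siTRA, 4020 to 4408 in CGG_siTRA and 15675 to 17032 in CGG, against 16913 to 17234 in CTL. The files do not name it, and no other gene behaved in this way. Library b of siTRA stood apart. Its mean correlation with the other libraries over genes was 0.977, against 0.986 to 0.989 for each of the other 14 libraries. Where leaving it out changed a call, or moved a called value by over 1.5 times, both values are given. The labelled cell type was not checked against markers, because no marker could be tied to an ID.

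All of these genes but CHAC1 were called higher in every transfected group than in control cells. FGF21 is left out of the counts against CTL, because all its CTL libraries were under the filter value of 10. It could be tested only if some transfected libraries lay above them. By edgeR's quasi-likelihood test over 14969 genes (adjusted p under 0.05 is a call here), 9 of the 9 other genes were called higher in CGG than in CTL, where 11.9% of all genes tested were called higher. In TRA_OE 9 of 9 were called higher (14.5% of all genes), in siTRA 8 of 9 (18.1%) and in CGG_siTRA 9 of 9 (14.8%). The counts in CGG and siTRA include ATF4, called there at adjusted p = 0.0422 and 0.0499. Those ATF4 calls were lost under many of the alternatives. As the genes were chosen with their levels known, the counts are a description. Their median log2 change was 1.30 in CGG, 1.44 in TRA_OE, 0.996 in siTRA and 1.46 in CGG_siTRA, and the median of all genes tested lay between -0.0048 and 0.0133. With the authors' library factors in place of TMM, the calls over all genes split into 1971 higher and 3654 lower in siTRA, against 2702 and 2981 with TMM. For CGG_siTRA the split was 1161 higher and 4041 lower, against 2221 and 2400. The 4 comparisons use the same CTL libraries, so they do not stand as separate observations of the control level. In bulk RNA, more RNA per cell and more cells with the RNA cannot be told apart.

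**Figure D1:**
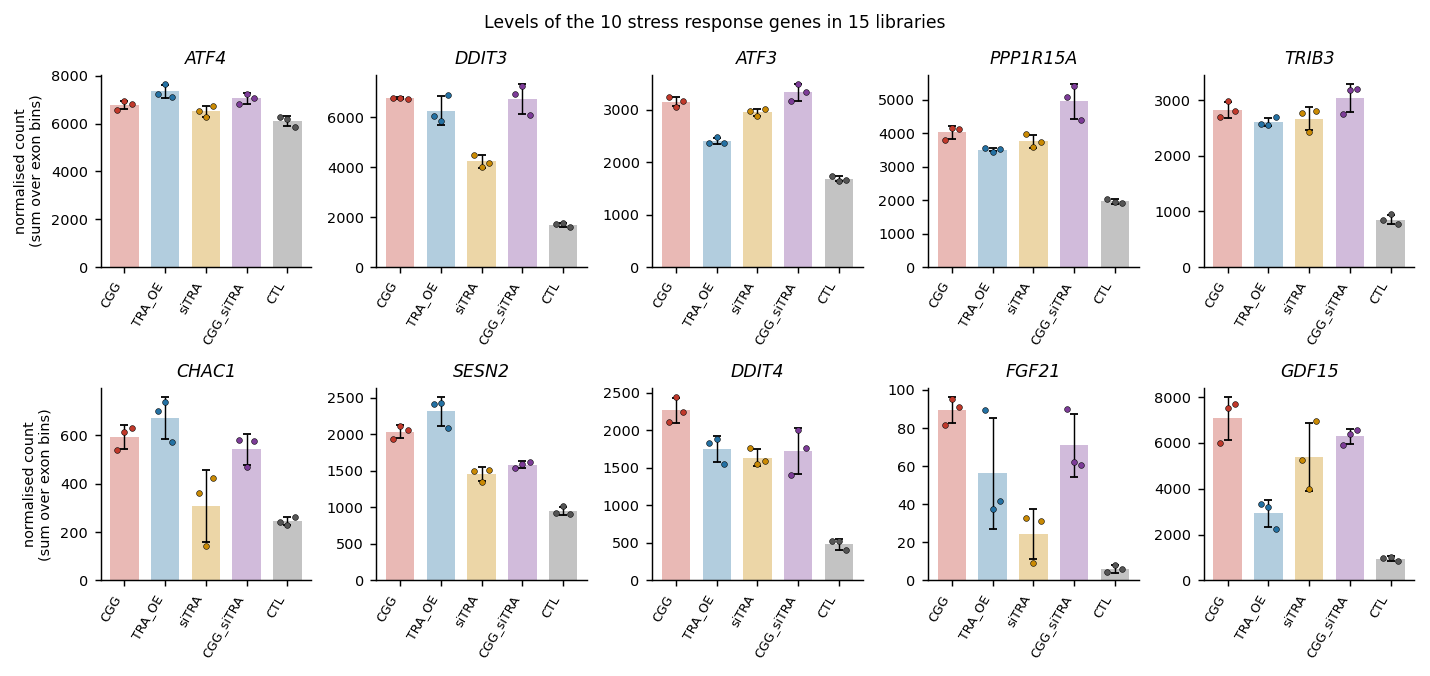
Normalised count (summed over exon bins, linear axis from 0) of each gene in the 15 libraries. Points are libraries, bars the group means and error bars the SD (n = 3). All genes but CHAC1 have every transfected library above every CTL library. The gap is narrow for ATF4 (6270 in siTRA b, 6261 in CTL a) and FGF21 (9.11 in siTRA b, 8.37 in CTL b). FGF21 had all its CTL libraries under the filter value and could be tested only through transfected libraries above them. The share of all genes that separate in this way was not counted, so nothing is read from it.

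The 3 transcription factors behaved differently from each other. ATF4 (ENSG00000128272.14, chr22:39519695-39522685, plus strand, GRCh38 as all positions here), whose control is known to act largely on translation, changed least at the RNA level. Its normalised count, which is the bin count divided by the authors' library factor, was 6580, 6925 and 6825 in CGG libraries a to c and 7232, 7667 and 7127 in TRA_OE. It was 6524, 6270 and 6730 in siTRA and 6814, 7247 and 7089 in CGG_siTRA, against 6261, 6173 and 5872 in CTL. All transfected libraries lay above all CTL libraries, the nearest pair being siTRA b and CTL a. The log2 changes, here and for the other genes, use TMM in place of the authors' factors, so the order of groups can differ. For ATF4 the mean normalised count was highest in TRA_OE, and the log2 change was highest in CGG_siTRA. The log2 change against CTL was 0.17 ± 0.060 in CGG (SE, adjusted p = 0.0422), 0.25 ± 0.060 in TRA_OE (adjusted p = 0.00415), 0.16 ± 0.060 in siTRA (adjusted p = 0.0499) and 0.33 ± 0.060 in CGG_siTRA (adjusted p = 0.000367). The call in CGG was lost when any 1 of the 6 libraries was left out (adjusted p = 0.0658 to 0.148). The call in siTRA was lost without siTRA a or c or any CTL library, with adjusted p = 0.0107 to 0.161 over the 6 fits.

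DDIT3 (ENSG00000175197.11, chr12:57516588-57520517, minus strand) encodes CHOP, a C/EBP-family transcription factor that is low in unstressed cells. Its normalised count was 6770, 6778 and 6736 in CGG, 6052, 5826 and 6899 in TRA_OE, 4490, 4008 and 4173 in siTRA and 6905, 7229 and 6071 in CGG_siTRA, against 1740, 1748 and 1599 in CTL. The transfected libraries were all above the CTL libraries. Those of siTRA formed a lower step of their own, with no overlap with any other group, while CGG, CGG_siTRA and TRA_OE overlapped each other. On the log2 scale DDIT3 rose by 2.02 ± 0.086 in CGG, 1.87 ± 0.086 in TRA_OE, 1.38 ± 0.085 in siTRA and 2.11 ± 0.087 in CGG_siTRA (SE), with adjusted p of 1.65e-09 or less in each.

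ATF3 (ENSG00000162772.16, chr1:212565334-212620777, plus strand) is another stress-induced factor of the bZIP family. It had normalised counts of 3239, 3057 and 3168 in CGG, 2367, 2474 and 2365 in TRA_OE, 2976, 2869 and 3003 in siTRA and 3165, 3493 and 3331 in CGG_siTRA, against 1740, 1648 and 1666 in CTL. It was lowest among the transfected groups in TRA_OE, whose libraries overlapped no other group. The log2 change was 0.93 ± 0.067 in CGG, 0.50 ± 0.067 in TRA_OE, 0.87 ± 0.067 in siTRA and 1.11 ± 0.067 in CGG_siTRA (adjusted p of 2.59e-05 or less).

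PPP1R15A and TRIB3 are feedback parts of the pathway. PPP1R15A (ENSG00000087074.7, chr19:48872392-48876057, plus strand), also called GADD34, brings protein phosphatase 1 to eIF2 and so reverses the phosphorylation. Its normalised count was 3802, 4144 and 4128 in CGG, 3557, 3447 and 3513 in TRA_OE, 3964, 3580 and 3719 in siTRA and 5067, 5404 and 4377 in CGG_siTRA, against 2047, 1944 and 1908 in CTL. CGG_siTRA libraries were the highest and overlapped no other group. The log2 change against CTL was 1.06 ± 0.084 in CGG, 0.82 ± 0.083 in TRA_OE, 0.996 ± 0.084 in siTRA and 1.46 ± 0.084 in CGG_siTRA (adjusted p of 1.28e-06 or less).

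TRIB3 (ENSG00000101255.10, chr20:380617-397559, plus strand), a pseudokinase that binds ATF4 and AKT, was the most even of the 10 across the transfected groups after ATF4. Its normalised count averaged 2827 ± 140 in CGG, 2603 ± 75.8 in TRA_OE, 2668 ± 211 in siTRA and 3041 ± 255 in CGG_siTRA, against 855 ± 87.8 in CTL (SD, n = 3 each). Its log2 change ran from 1.59 ± 0.092 in TRA_OE to 1.95 ± 0.092 in CGG_siTRA (SE), and none of the 5 differences between transfected groups described below was called for it. When only the gene's highest bin was counted, edgeR called it in CGG_siTRA over CGG (0.30, adjusted p = 0.0207). It was then also called in TRA_OE over siTRA (-0.36, adjusted p = 0.00233).

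CHAC1, SESN2 and DDIT4 act on redox balance and growth. CHAC1 (ENSG00000128965.11, chr15:40952962-40956519, plus strand) is an enzyme that breaks down glutathione. It had normalised counts of 538, 614 and 629 in CGG, 702, 740 and 573 in TRA_OE, 363, 141 and 423 in siTRA and 579, 469 and 578 in CGG_siTRA, against 244, 231 and 261 in CTL. The siTRA libraries were spread widely, with library b below all CTL libraries and a and c above them. CHAC1 rose by 1.30 ± 0.25 in CGG, 1.44 ± 0.25 in TRA_OE and 1.27 ± 0.25 in CGG_siTRA on the log2 scale (adjusted p of 0.000999 or less). In siTRA its log2 change was 0.42 ± 0.26 (adjusted p = 0.219), with a 95% interval from -0.12 to 0.96. Without siTRA library b it was 0.76 (adjusted p = 0.000388), and without c it was 0.13 (adjusted p = 0.745).

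SESN2 (ENSG00000130766.4, chr1:28259527-28282491, plus strand) is a stress-induced leucine sensor that restrains mTORC1. It averaged 2039 ± 88.8 normalised counts in CGG, 2317 ± 195 in TRA_OE, 1457 ± 92.5 in siTRA and 1584 ± 44.5 in CGG_siTRA, against 950 ± 54.9 in CTL (SD, n = 3 each). CGG and TRA_OE overlapped at the top. Below them, without overlap, came CGG_siTRA, then siTRA, then CTL. The gap between the knockdown groups was narrow (lowest CGG_siTRA library 1537, highest siTRA library 1517). The log2 change was 1.12 ± 0.085 in CGG, 1.27 ± 0.085 in TRA_OE, 0.68 ± 0.085 in siTRA and 0.86 ± 0.085 in CGG_siTRA (adjusted p of 6.64e-06 or less).

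DDIT4 (ENSG00000168209.4, chr10:72273920-72276036, plus strand), also called REDD1, is likewise an inhibitor of mTORC1. It had normalised counts of 2113, 2446 and 2249 in CGG, 1828, 1881 and 1558 in TRA_OE, 1763, 1554 and 1594 in siTRA and 1405, 2010 and 1762 in CGG_siTRA, against 524, 529 and 400 in CTL. CGG libraries were above all others, and the other 3 transfected groups overlapped. DDIT4 rose by 2.25 ± 0.13 in CGG, 1.85 ± 0.13 in TRA_OE, 1.82 ± 0.13 in siTRA and 1.96 ± 0.13 in CGG_siTRA on the log2 scale (adjusted p of 1.49e-08 or less).

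FGF21 and GDF15 encode secreted factors. FGF21 (ENSG00000105550.8, chr19:48755559-48758330, plus strand), a hormone of energy metabolism, had the lowest level of the 10 per kb of summed bins. It was counted 69, 83 and 112 times in CGG, 92, 41 and 37 times in TRA_OE, 35, 7 and 32 times in siTRA and 82, 59 and 66 times in CGG_siTRA, against 4, 9 and 6 times in CTL. Its normalised count was 81.7, 95.3 and 91.0 in CGG, 89.7, 37.5 and 41.5 in TRA_OE, 33.0, 9.11 and 31.2 in siTRA and 89.9, 62.1 and 60.8 in CGG_siTRA, against 4.29, 8.37 and 5.85 in CTL. Transfected libraries were all above CTL, but siTRA b came within 1 normalised count of CTL b, and TRA_OE library a was far above the other two. All CTL libraries were under the filter value of 10, so FGF21 entered the test only through transfected libraries above them. The filter thus favoured a difference from CTL, although it did not set 1 in each group. Its log2 change was 3.84 ± 0.49 in CGG, 3.14 ± 0.50 in TRA_OE, 2.05 ± 0.53 in siTRA and 3.60 ± 0.50 in CGG_siTRA. These values are a description, with wide errors from the low counts.

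GDF15 (ENSG00000130513.6, chr19:18382170-18389176, plus strand) is a stress hormone of the TGF-beta family. It had normalised counts of 5998, 7514 and 7704 in CGG, 3321, 3220 and 2244 in TRA_OE, 5273, 3998 and 6953 in siTRA and 5926, 6405 and 6563 in CGG_siTRA, against 998, 1029 and 829 in CTL. Here TRA_OE, and not siTRA as for DDIT3, was the lowest transfected group and overlapped no other, while the other 3 groups overlapped. Its log2 change was 2.92 ± 0.18 in CGG, 1.61 ± 0.18 in TRA_OE, 2.57 ± 0.18 in siTRA and 2.85 ± 0.18 in CGG_siTRA (adjusted p of 3.46e-06 or less).

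**Figure D2:**
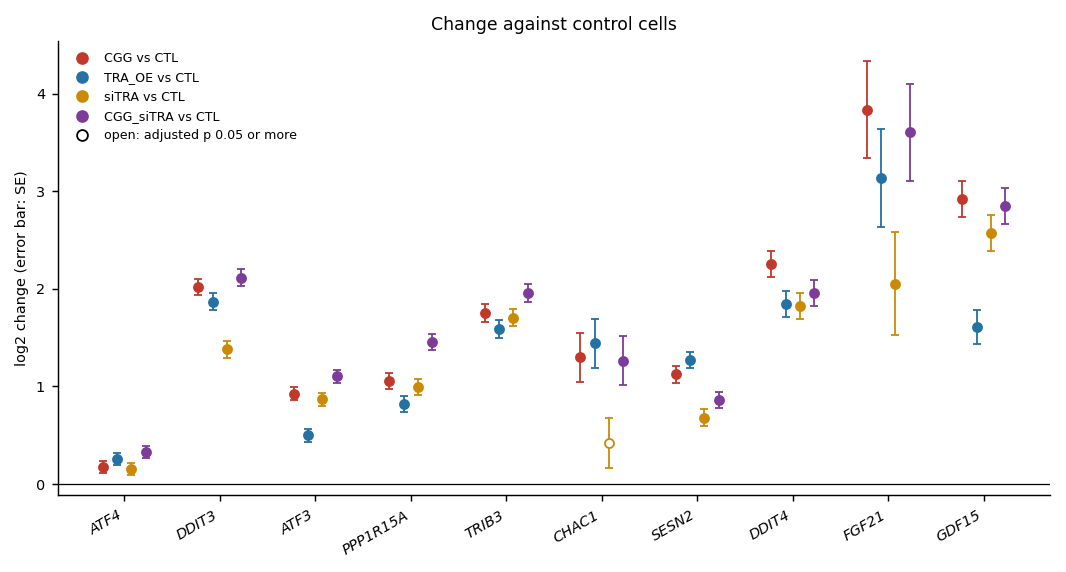
Log2 change of each gene against CTL in CGG, TRA_OE, siTRA and CGG_siTRA, from edgeR. Error bars are SE and open points have an adjusted p of 0.05 or more, which is CHAC1 in siTRA alone; ATF4 lies between 0.16 and 0.33, and GDF15 between 1.61 and 2.92.

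The comparisons between transfected groups do not set values against the CTL libraries. The 10 genes' median log2 change was 0.03 in CGG_siTRA over CGG, 0.26 in CGG_siTRA over siTRA, 0.06 in TRA_OE over siTRA, 0.20 in CGG over TRA_OE and 0.39 in CGG over siTRA, while the median of all genes lay between -0.007 and 0.0092. With the authors' factors, the calls over all genes split into 297 higher and 2039 lower in CGG_siTRA over CGG (619 and 903 with TMM). They split into 3660 and 1555 in TRA_OE over siTRA (2522 and 2202), 659 and 803 in CGG over TRA_OE (784 and 478) and 1785 and 702 in CGG over siTRA (1332 and 1012). In the repeat with knockdown against the repeat alone, PPP1R15A was the 1 gene of 10 that was called, where 4.14% of all genes tested were called higher and 10.2% in either direction. Its log2 change was 0.40 ± 0.082 (SE, adjusted p = 0.00318), with libraries at 5067, 5404 and 4377 in CGG_siTRA, against 3802, 4144 and 4128 in CGG. SESN2 had 1584 ± 44.5 in CGG_siTRA, against 2039 ± 88.8 in CGG, with no overlap and a log2 change of -0.26 ± 0.084 (adjusted p = 0.0531). SESN2 was called by DESeq2 (-0.26, adjusted p = 0.0172), by limma (-0.36, adjusted p = 0.00572) and by edgeR with only these groups fitted (-0.26, adjusted p = 0.0452). By edgeR it was not called on the highest bin or with any 1 library left out (adjusted p = 0.0759 to 0.169). In the main edgeR fit DDIT4 gave -0.29 ± 0.12 (adjusted p = 0.160). With the authors' library factors, which move the median of all genes from 0.0065 to -0.0932 on the log2 scale, SESN2 had -0.36 (adjusted p = 0.00443), DDIT4 -0.39 (adjusted p = 0.0355), and PPP1R15A was among the 3 genes called. For DDIT3 the change was 0.10 ± 0.082, with a 95% interval from -0.08 to 0.27, and its sign turned with the authors' factors (-0.0057). The intervals of CHAC1 (-0.54 to 0.48), FGF21 (-1.04 to 0.58) and GDF15 (-0.42 to 0.29) were wider.

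In the repeat with knockdown against the knockdown alone, DDIT3 had a log2 change of 0.73 ± 0.083. Its libraries were at 6905, 7229 and 6071 in CGG_siTRA, against 4490, 4008 and 4173 in siTRA, with no overlap. It was the 1 gene of 10 called, where 0.0134% of all genes tested were called, 2 of 14969. DDIT3 had been singled out for this difference in an earlier account of these libraries, so nothing is read from that count. All 10 genes had a value above 0 in this comparison, from 0.14 ± 0.12 for DDIT4 to 1.55 ± 0.42 for FGF21. The share of all genes above 0 was not counted, so nothing is read from this. The intervals of DDIT4 (-0.13 to 0.40) and GDF15 (-0.08 to 0.63) took in 0. Without siTRA library b, the values of GDF15 (0.08), DDIT4 (0.08), SESN2 (0.11) and TRIB3 (0.16) were lower by over 1.5 times. That of CHAC1, given below, fell as well. PPP1R15A was next in unadjusted p after DDIT3, at 0.46 ± 0.082 (adjusted p = 0.0655), and was called without CGG_siTRA library a (0.43, adjusted p = 0.0425) or c (0.55, adjusted p = 0.00558). The other 4 fits that left out 1 library gave no call for PPP1R15A, among them 0.39 (adjusted p = 0.452) without CGG_siTRA b and 0.40 (adjusted p = 0.151) without siTRA b. For ATF4 the value was 0.18 ± 0.060 (adjusted p = 0.159) and for CHAC1 0.85 ± 0.25 (adjusted p = 0.135), or 0.50 (adjusted p = 0.287) without siTRA library b.

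TRA_OE and siTRA are labelled with opposite changes of TRA2A. The labels name no empty-vector and no control-siRNA group, so the level of TRA2A and the means of changing it cannot be told apart. In TRA_OE against siTRA, 5 of 10 genes were called, beside 31.6% of all genes tested, 16.8% higher and 14.7% lower. Calls over all genes went in both directions too, so nothing is read from the directions of the 5. DDIT3 (0.49 ± 0.083, adjusted p = 0.000223), CHAC1 (1.02 ± 0.25, adjusted p = 0.00440) and SESN2 (0.59 ± 0.084, adjusted p = 4.03e-05) were higher in TRA_OE. ATF3 (-0.37 ± 0.066, adjusted p = 0.000352) and GDF15 (-0.96 ± 0.17, adjusted p = 0.000360) were lower in TRA_OE. All 5 calls held without siTRA library b, where CHAC1 stood at 0.67 (the lowest of the 6 fits). PPP1R15A became a call without that library, at -0.24 (adjusted p = 0.0380), against -0.18 with it. FGF21 had 1.08 ± 0.42 (adjusted p = 0.0579), and its adjusted p was 0.0361 with the authors' factors. With 1 library left out FGF21 ran from 0.55 (adjusted p = 0.385, without TRA_OE a) to 1.33 (adjusted p = 0.0495, without siTRA a), and it was 0.70 (adjusted p = 0.189) without siTRA b.

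CGG and TRA_OE differed at 2 of 10 genes, both higher in CGG, with 5.24% of all genes tested called higher and 8.43% in either direction. GDF15 was at 5998, 7514 and 7704 in CGG, against 3321, 3220 and 2244 in TRA_OE, a log2 change of 1.31 ± 0.17 (adjusted p = 0.000115). ATF3 was 0.43 ± 0.066 higher in CGG (adjusted p = 0.000571). DDIT4 gave 0.41 ± 0.12 (adjusted p = 0.0504) without overlap between the groups. SESN2 and CHAC1 had values of -0.15 ± 0.083 and -0.14 ± 0.24, and the 95% interval of DDIT3 ran from -0.02 to 0.32.

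CGG and siTRA, which share neither treatment, differed at 5 of 10 genes, all higher in CGG, beside 8.9% of all genes tested called higher and 15.7% in either direction. They were DDIT3 (0.64 ± 0.083, adjusted p = 3.36e-05), CHAC1 (0.88 ± 0.25, adjusted p = 0.0220), SESN2 (0.44 ± 0.084, adjusted p = 0.00136), FGF21 (1.78 ± 0.42, adjusted p = 0.00690) and DDIT4 (0.43 ± 0.12, adjusted p = 0.0247). FGF21 had siTRA library b under the filter value, and with FGF21 left out the count is 4 of 9. The CHAC1 call was lost without CGG library b (0.86, adjusted p = 0.0696) or c (0.82, adjusted p = 0.0766), and without siTRA library b it stood at 0.54 (adjusted p = 0.0163). That of DDIT4 was lost without CGG b or c or siTRA b or c (0.37 to 0.42, adjusted p = 0.0559 to 0.111), with 0.37 (adjusted p = 0.0847) without siTRA b. Without siTRA library c, GDF15 was called at 0.57 (adjusted p = 0.0226), against 0.34 ± 0.17 with it, and without siTRA library b it was 0.15 (adjusted p = 0.610). These contrasts share the CGG, TRA_OE and siTRA libraries in pairs and are not independent of each other.

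**Figure D3:**
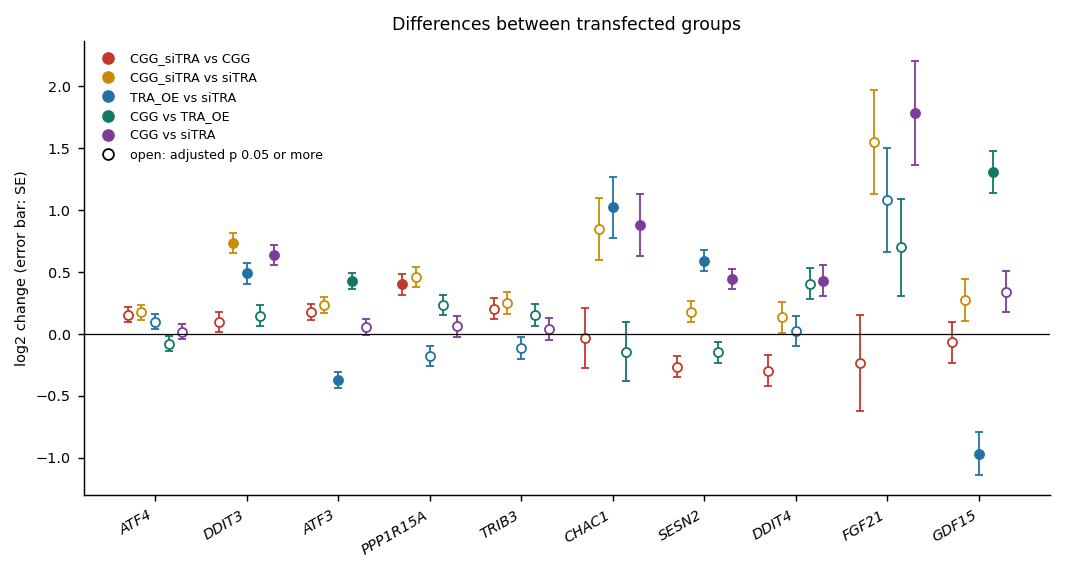
Log2 change of each gene in the 5 comparisons between transfected groups, the first-named group over the second. Error bars are SE and open points have an adjusted p of 0.05 or more; filled points include DDIT3 in 3 comparisons and GDF15 on either side of 0.

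The knockdown difference with the repeat was set against that without it. The value given is the log2 change of CGG_siTRA over CGG minus that of siTRA over CTL. A gene raised by a like amount over CTL in every transfected group falls below 0 in this value, whatever the treatment. The genes were chosen with their levels known. The values are therefore a description and no test of dependence on the repeat, and nothing is read from their count. For 7 of the 9 genes other than FGF21 it was below 0 with a call, where 9.12% of all genes tested were called below 0 and 19.4% in either direction. The median was -0.94 over these 9 genes and 0.006 over all genes. It was -2.64 ± 0.25 for GDF15, -2.12 ± 0.18 for DDIT4, -1.50 ± 0.13 for TRIB3 and -1.28 ± 0.12 for DDIT3 (adjusted p of 1.03e-06 or less). FGF21, which passed the filter only through the transfected groups, had -2.29 ± 0.65 (adjusted p = 0.0200). That call was lost without siTRA library a (-2.02, adjusted p = 0.0519) or CTL library a (-2.10, adjusted p = 0.0591). SESN2 gave -0.94 ± 0.12, ATF3 -0.69 ± 0.093 and PPP1R15A -0.60 ± 0.12 (adjusted p of 0.0016 or less). The components show what the value sums up. For DDIT4, the change was -0.29 in CGG_siTRA over CGG and 1.82 in siTRA over CTL, and for TRIB3 it was 0.21 and 1.71. CHAC1 gave -0.45 ± 0.35 (adjusted p = 0.413), and -0.79 (adjusted p = 0.00550) without siTRA library b or -0.15 (adjusted p = 0.802) without c. ATF4 gave 0.0019 ± 0.085. The value takes in the CTL libraries, so the absence of a transfected control bears on it too.

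Of the other single genes, the 2 whose log2 normalised counts were most like those of DDIT3 over the 15 libraries had IDs ENSG00000044574.7 (Pearson r = 0.978) and ENSG00000051108.14 (r = 0.974). The first averaged 121966 normalised counts in CGG, 118535 in TRA_OE, 92359 in siTRA and 111870 in CGG_siTRA, against 64489 in CTL. Among 13281 genes TRIB3 ranked 8 (r = 0.949) and DDIT4 ranked 9 (r = 0.943) in this likeness, while ATF4 ranked 157 (r = 0.801) and CHAC1 258 (r = 0.753). The libraries fall into groups, and these values carry no test.

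Relative bin use is the share of a gene's counts in each exon bin. A bin that rises less than its gene loses share, so the shares are not free of the gene's level. How far the choice of genes by level bears on them was not tested. The 10 genes had 117 bins in the normalised table, of which 82 had enough counts to test. By level, and not by share, most bins of a gene lay on the same side of CTL. In CGG every tested bin lay above CTL for 8 of the genes, from 2.12-fold to 4.29-fold over the 13 tested bins of DDIT3 and from 6.39-fold to 8.52-fold over the 4 of GDF15. ATF3 had 19 of 20 bins above CTL in CGG, and ATF4 had 3 of 4. These ratios follow the gene levels already described. The share over all genes was not counted, so nothing is read from the count of 8.

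**Figure D4:**
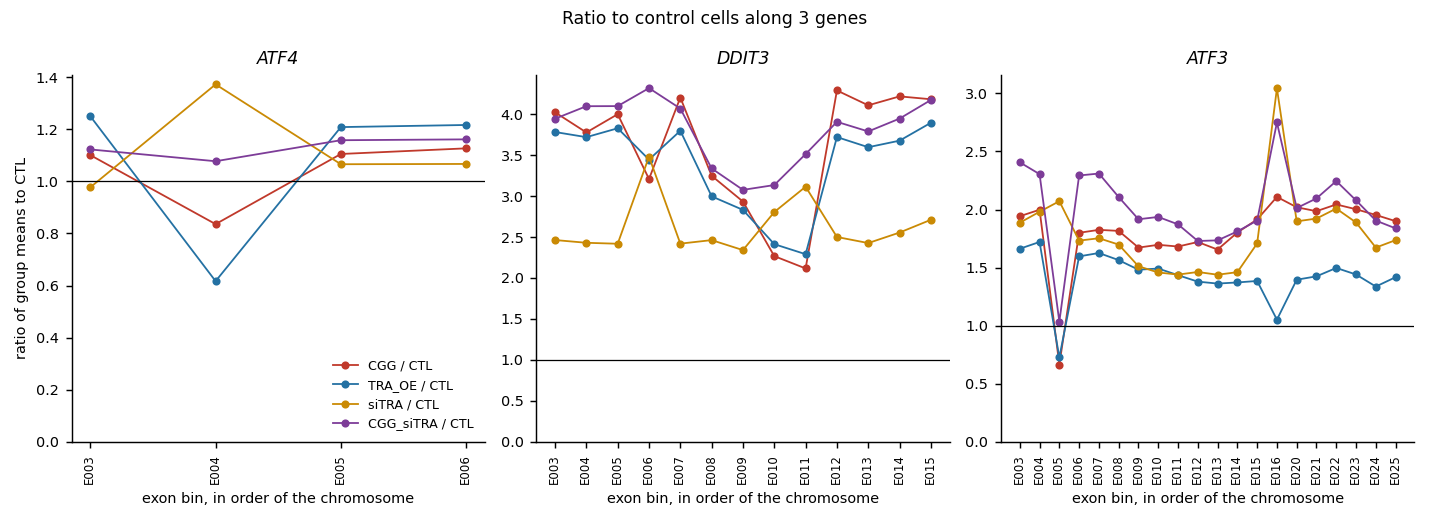
Ratio of the mean normalised count in each transfected group to that in CTL, for the tested exon bins of ATF4, DDIT3 and ATF3 in chromosome order (DDIT3 lies on the minus strand). ATF4 bin E004 is at 0.836 in CGG and 0.617 in TRA_OE, and ATF3 bin E005 at 0.666 in CGG and 0.726 in TRA_OE.

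The bins called by diffSpliceDGE were in ATF4, ATF3 and DDIT3. ATF4 bin E004 lies at chr22:39520752-39521353. The files do not say whether a bin is coding or untranslated. It held 1.75%, 1.51% and 1.73% of the gene's count in CGG, 1.21%, 1.12% and 1.05% in TRA_OE, 2.76%, 3.36% and 2.42% in siTRA and 2.53%, 2.53% and 1.12% in CGG_siTRA, against 2.62%, 1.58% and 2.41% in CTL. TRA_OE libraries lay below all CTL libraries, siTRA libraries overlapped CTL, and CGG_siTRA library c fell among the TRA_OE libraries. By edgeR's diffSpliceDGE over 265486 bins, its relative use had a log2 change of -0.95 in TRA_OE against CTL (adjusted p = 0.000966), where 1 of 82 bins of these genes and 0.368% of all bins were called. Without CTL library a it was -0.81 (adjusted p = 0.0721). In TRA_OE against siTRA it was -1.32 (adjusted p = 7.72e-07), 1 of 2 bins called in these genes, beside 0.396% of all bins.

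ATF3 bin E005 lies at chr1:212613436-212614127. It held 0.512%, 0.451% and 0.590% of the gene's count in CGG, 0.618%, 0.665% and 0.949% in TRA_OE, 1.71%, 2.49% and 1.01% in siTRA and 0.554%, 1.21% and 0.498% in CGG_siTRA, against 1.05%, 1.41% and 1.93% in CTL. The shares rest on 12 to 55 counts a library. CGG and TRA_OE libraries were all below CTL, with CGG lowest. Its relative use changed by -1.48 in CGG against CTL (adjusted p = 0.0117), the 1 bin of 82 called beside 0.25% of all bins. That call was lost in 5 of the 6 fits that left out 1 library, those without CGG a, b or c or CTL b or c (adjusted p = 0.0583 to 0.489).

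In CGG against siTRA 3 of 82 bins were called, beside 0.199% of all bins. They were ATF3 E005 (-1.70, adjusted p = 0.000412), ATF4 E004 (-0.76, adjusted p = 0.0189) and DDIT3 E011 (-1.25, adjusted p = 0.0216), which lies at chr12:57517596-57517705. DDIT3 E011 held 0.385%, 0.525% and 0.326% of the gene's count in CGG, against 0.986%, 1.23% and 0.702% in siTRA, from 22 to 47 counts a library. Library b of siTRA was highest in all 3 bins. Without it none of the 3 was called (log2 changes of -1.38, -0.64 and -1.07, adjusted p = 0.143, 0.504 and 0.654). Each of ATF4 E004 and DDIT3 E011 was also lost without any 1 CGG library, and DDIT3 E011 without siTRA library a. The other bin called in TRA_OE against siTRA was ATF3 E005 (-1.21, adjusted p = 0.0386), lost without TRA_OE a or b or siTRA a or b (adjusted p = 0.0815 to 1.0). Without siTRA b the log2 change of ATF3 E005 was -0.89.

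**Figure D5:**
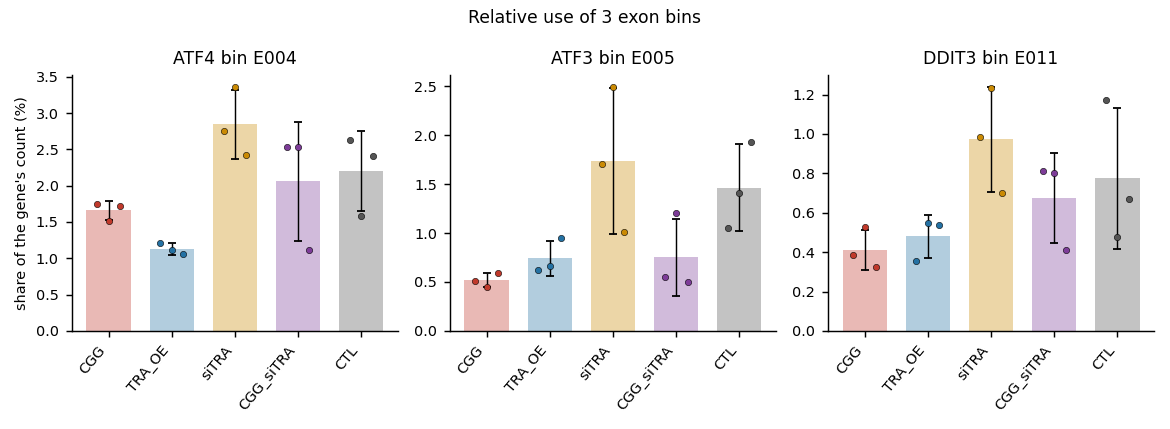
Share of the gene's count, in percent, held by ATF4 bin E004, ATF3 bin E005 and DDIT3 bin E011 in each library. Points are libraries, bars the group means and error bars the SD (n = 3). Library b of siTRA is the highest of the 15 in each bin, and the means of CGG and TRA_OE are the lowest of the 5.

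In the other 5 comparisons diffSpliceDGE called 0 of 82 bins. Of all bins it called 0.508% in siTRA against CTL, 0.53% in CGG_siTRA against CTL, 0.135% in CGG_siTRA against CGG, 0.0516% in CGG_siTRA against siTRA and 0.0166% in CGG against TRA_OE. Of the 82 bins, 3 had an unadjusted p under 0.05 in siTRA against CTL (6.74% of all bins), 2 in CGG_siTRA against CTL (4.82%), 3 in CGG_siTRA against CGG (3.8%), 3 in CGG_siTRA against siTRA (5.31%) and 1 in CGG against TRA_OE (1.51%). limma's diffSplice called 2 bins in siTRA against CTL (2.38% of all bins), 1 in CGG_siTRA against CTL (1.38%), 0 in CGG_siTRA against CGG (1.12%), 2 in CGG_siTRA against siTRA (1.73%) and 0 in CGG against TRA_OE (0.53%). Nothing is read from these counts.

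The authors' deposited tables of differential bin use list 8 entries in these genes with an adjusted p under 0.05. Of all bins with an adjusted p, the authors' deposited tables call 2% for CGG over CTL, 3.34% for CGG_siTRA over CGG, 3.87% for CGG_siTRA over CTL, 1.32% for CTL over GFP_TRA, 1.83% for CTL over siTRA and 0.595% for GFP_TRA over siTRA, and nothing is read from the count of 8. In the authors' deposited table, ATF4 E004 had an adjusted p of 0.00572 and a log2 fold change of 0.96 for CTL over GFP_TRA, which runs from control to treated. The same bin had an adjusted p of 1.12e-11 and -1.31 for GFP_TRA over siTRA in the authors' deposited table. ATF3 E005 had an adjusted p of 0.000350 and -1.48 for CGG over CTL in the authors' deposited table. The authors' deposited table for GFP_TRA over siTRA also lists DDIT4 E006 (-1.81, adjusted p = 0.00381) and DDIT3 E006 (-0.58, adjusted p = 0.0191), which diffSpliceDGE did not call here (adjusted p = 0.134 and 0.312). The remaining 3 in the authors' deposited tables were ATF3 E019 (adjusted p = 0.0250) for CTL over siTRA, GDF15 E012 (adjusted p = 0.000932) for CGG_siTRA over CTL and PPP1R15A E002 (adjusted p = 0.0478) for CGG_siTRA over CGG.

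The entry for DDIT4 E006 rests on few counts. It was counted 5, 9 and 21 times in CGG, 5, 9 and 6 times in TRA_OE, 25, 18 and 16 times in siTRA and 16, 20 and 8 times in CGG_siTRA, against 2, 2 and 1 times in CTL. It held 0.267%, 0.437% and 0.432% of the gene's count in TRA_OE, against 1.34%, 1.51% and 0.980% in siTRA, with no overlap.

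The authors' deposited tables of splicing events hold 1 event in these genes, among 6311. It is an alternative 3′ splice site in DDIT3, between positions 57517424 and 57517706 of chromosome 12, a stretch that holds bin E011. In the authors' deposited tables the fraction by which percent spliced in changed was -0.0202 for CGGTRA vs CGG (p = 0.538), -0.0246 for CGGTRA vs CGGsiTRA (p = 0.672) and -0.0261 for CGGsiTRA vs siTRA (p = 0.998). It was -0.0650 for CGG vs CTL and -0.0593 for GFPTRA vs CTL, each with a p of 1.0 after rounding. The files do not state the direction of these changes, and they are the only values for DDIT3 that take in the CGG_TRA samples.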

How the data were processed

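Total RNA of COS-7 cells (Qiagen extraction with DNase) was made into TruSeq libraries after ribosomal RNA depletion, per the labels' protocols. The submitters' processing notes list cutadapt 1.14, STAR 2.5.2, DESeq2 (no role given) and human GRCh38.p10, although the cells are from green monkey, so reads can be lost where monkey and human sequence differ. Whether strand was used in counting is not given in the sources used here, so reads of an antisense gene cannot be told apart.

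The authors deposited normalised values per exon bin (a signal scaled by 1 factor per library) and DEXSeq tables with raw counts, p-values and log2 fold changes, per the file headers. The authors also deposited EventPointer tables, in which a fraction gives the change of percent spliced in beside its p-value and z score. Whole reads were recovered from the normalised values for 100.0% of values within 0.1 of a read, and they equalled the deposited counts in 6311190 of 6311190 cells. Raw counts of 431444 bins were summed to genes, so a read over several bins counts in each. Bins outside these held 1.56% to 2.10% of reads.

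Genes that reached a normalised count of 10 in 3 libraries were tested with edgeR 4.0.16 in R 4.3.3 (quasi-likelihood, TMM, 5 group means, Benjamini-Hochberg), and bins with diffSpliceDGE. Tests were checked on simulated data. Alternatives were DESeq2 1.42.0, limma 3.58.1 on log2(value + 1), other scalings and filters, the highest bin of each gene, and each library left out. A test on recovered reads of all bins (17526 genes) was added after the data were examined. All 10 genes are named, with bins of adjusted p under 0.05. The genes, lists and tests were chosen with earlier results of these data known. Lists of other pathway genes and of cell markers, kept by symbol, were not analysed here because IDs could not be matched to names.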

Additional observations from a re-analysis of the deposited data

Results flagged for a closer look

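In 7 of the 9 genes other than FGF21, the TRA2A knockdown difference with the repeat (CGG_siTRA over CGG) was called below that without it (siTRA over CTL). The call is by edgeR's test of the difference itself, with adjusted p over all genes. Of all genes tested, 9.12% were called below 0 and 19.4% in either direction. A like rise over CTL in every transfected group gives such a value by itself, so nothing is read from the count. The log2 values, the first minus the second and with FGF21 added, were -1.28 for DDIT3, -0.69 for ATF3, -1.50 for TRIB3, -0.94 for SESN2, -0.60 for PPP1R15A, -2.29 for FGF21, -2.12 for DDIT4 and -2.64 for GDF15. The FGF21 call was lost without siTRA library a (adjusted p = 0.0519) or CTL library a (adjusted p = 0.0591), and FGF21 passed the filter on low values only through the transfected groups. The corresponding changes against CTL in the knockdown alone, without the repeat, were 1.38, 0.87, 1.71, 0.68, 0.996, 2.05, 1.82 and 2.57. CTL libraries enter each value, and the part of transfection itself was not tested.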

How the results depend on the processing

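No paired analysis was possible because the count columns are numbered by library, and these numbers do not match the replicates named in the titles. Against CTL, every call of the 10 genes (those of FGF21 favoured by the filter) held under the alternatives run, other than ATF4 in CGG and in siTRA, and CHAC1 in siTRA became a call without siTRA b. ATF4 in CGG had adjusted p of 0.0710 with the authors' factors, and in siTRA 0.234. The number of the 10 genes called in CGG_siTRA vs CGG was 1, and 3 with the authors' factors, 4 by DESeq2, 3 by limma, 2 on the highest bin and 2 with only those groups fitted. In CGG_siTRA vs siTRA it was 1, and 3 by DESeq2, 0 with only those groups fitted, and 1 to 2 with 1 library left out. With only those groups DDIT3 had 0.74 and was not called. Over all genes that comparison gave 2 calls by edgeR, 566 by DESeq2, 5 by limma, and 599 without CGG_siTRA library a or 8 without c. CGG vs TRA_OE gave 4 of the 10 genes by DESeq2 and 4 with only those groups, in place of 2. CGG vs siTRA gave 3 to 5 with 1 library left out. Over all genes, CGG_siTRA vs CGG gave 1522 calls, and 2336 with the authors' factors, 2374 by limma and as few as 944 without CGG_siTRA b. CGG vs TRA_OE gave 1262, and 498 on the highest bin, 2363 with only those groups and 622 to 809 with 1 library left out. With only the groups compared, CGG vs CTL gave 6275 in place of 3622, TRA_OE vs siTRA 2950 in place of 4724 and CGG vs siTRA 1454 in place of 2344 (1328 without CGG b). The repeat-by-knockdown value gave 2897, and 1919 on the highest bin.

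Over all bins, limma's diffSplice called from 1407 in CGG vs TRA_OE (44 by diffSpliceDGE) to 6322 in siTRA vs CTL (1348), and calls in CGG_siTRA vs siTRA ran from 1 without siTRA b to 890 without CGG_siTRA a (137 with all). For the bins of the 10 genes, limma's diffSplice called 2 of 82 in CGG vs CTL (1.33% of all bins), 2 in TRA_OE vs CTL (1.29%), 2 in siTRA vs CTL (2.38%), 1 in CGG_siTRA vs CTL (1.38%), 2 in CGG_siTRA vs siTRA (1.73%), 5 in TRA_OE vs siTRA (2.38%) and 5 in CGG vs siTRA (2.08%). With 1 library left out, diffSpliceDGE called 0 to 1 in CGG vs CTL, 0 to 1 in TRA_OE vs CTL, 0 to 1 in CGG_siTRA vs CTL, 0 to 1 in CGG_siTRA vs siTRA, 1 to 3 in TRA_OE vs siTRA and 0 to 3 in CGG vs siTRA.

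Signs turned only for values near 0 that were not calls. In CGG_siTRA vs CGG, DDIT3 had -0.0057 with the authors' factors and -0.0094 by limma, CHAC1 0.0209 and FGF21 0.0414 on the highest bin, and with 1 library left out CHAC1 ran from -0.0963 to 0.0542 and GDF15 from -0.1711 to 0.0063. DDIT4 in TRA_OE vs siTRA had -0.0435 on the highest bin and -0.0465 to 0.0894 with 1 library left out. In CGG vs siTRA, TRIB3 had -0.1553 on the highest bin and -0.0437 to 0.0793 with 1 library left out, and ATF4 -0.0308 to 0.0441. The repeat-by-knockdown value of ATF4 was -0.036 with the authors' factors, -0.0027 by DESeq2, -0.0358 by limma and -0.044 to 0.0384 with 1 library left out. The cause of these turns was not tested.

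Counts limit FGF21 and the low bins most, and the spread of 3 libraries a group limits the rest.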
